A study of Mus musculus with 11 samples.

Results

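The 10 claudins Cldn1, Cldn3, Cldn4, Cldn6, Cldn7, Cldn8, Cldn9, Cldn10, Cldn11 and Cldn14 were examined in mouse otospheres, in the cochlear sensory epithelium (CSE) and in embryonic stem cells (ESCs). They were picked by gene symbol as claudins of epithelial tight junctions, with earlier results of these data known. On the array they had 11 probes among 55681, and all 11 were among the 47997 probes bright enough to be tested, which read 18565 named genes. Otospheres are floating spheres that grow from single cells of the dissociated CSE, and the study compared them with the CSE and with ESCs to find genes that set them apart. The otospheres (OS) and the CSE came from ICR mice aged 1 day, with 10 mice and 20 cochleae pooled per preparation. The otospheres were at passage 1 and had been cultured for 4 to 5 days before and again after the passage, in medium with bFGF, IGF1 and heparan sulfate, and hollow spheres had been removed by size. The CSE had been dissected free of the spiral ligament and stria vascularis and was not cultured. The ESCs (ES) were at passage 13 in medium with serum and LIF. ES1 was the G4-2 line, and ES2 was labelled as the D3 line.

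Claudins are membrane proteins that span the membrane and bind each other across the gap between neighbouring epithelial cells, where they form the strands of the tight junction. Which claudins a cell makes sets whether ions and water pass between the cells: some members seal the gap, and others form pores for cations or anions. In the cochlea, tight junctions separate the potassium-rich endolymph above the hair cells and supporting cells from the fluid around their bases, and loss of single claudins is a known cause of deafness.

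Total RNA had been labelled with Cy3 and hybridised to 11 arrays, of which 6 held otospheres, 3 held CSE and 2 held ESCs. By a rough measure given below, the arrays OS1 and OS2 differed by less than the noise between spots of a probe, as did OS4 and OS5. Each pair was therefore averaged (OS1-2 and OS4-5) and counted as 1 sample, which left 4 OS, 3 CSE and 2 ES samples. The share of spots well above background was 55.1% to 63.4% on ES arrays, 58.5% to 68.2% on OS arrays and 60.0% to 71.6% on CSE arrays. The labels matched the defining markers in part. Pou5f1, which marks pluripotent cells, had a mean log2 signal of 14.14 in ES, 5.43 in OS and 5.40 in CSE. The hair cell myosin gene Myo7a was at 10.47 in CSE, 8.0 in OS and 7.8 in ES, and OS and ES did not differ by the test (0.2, adjusted p = 0.805). Sox2, which marks supporting cells and also pluripotent cells, was at 12.59 in ES, 10.99 in CSE and 8.23 in OS. Values are log2 signals after background correction and quantile normalisation, a difference of 1 is a 2-fold change, and levels of different genes are not compared because each probe has its own brightness. All adjusted p-values are two-sided, from limma and a Benjamini-Hochberg adjustment over the 47997 probes. They measure the spread between these samples, which may be partly technical. In such bulk RNA, fewer cells that make a claudin and less of its RNA per cell cannot be told apart.

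Most of the 10 claudins had their highest signal in otospheres. Against the CSE, 6 of 10 were higher in otospheres (Cldn1, Cldn3, Cldn4, Cldn6, Cldn7 and Cldn9), where 4.84% of all probes were higher, and 0 of 10 were lower, where 6.19% of all probes were lower. The limma count of lower members was 2 at an unadjusted p under 0.05 (Cldn8 and Cldn11). The median OS minus CSE difference of the 10 was 1.80 on the log2 scale, against 0.02 over all probes, and 7 of 10 had samples that did not overlap between the groups, against 23.4% of all probes. The count of 6 was 6 again with the slide as a block and within slide 2, but 2 within slide 1 (Cldn4 and Cldn6). Leaving out CSE1 also gave 2. The count was 4 without OS4-5, without OS6, without CSE2 or without CSE3. Calls over all probes fell in these settings too. Of 47997 probes, 2321 were higher in the main fit, 1281 without CSE1, and 1377 (without CSE3) to 1965 (without OS6) in the others. Within slide 1 fewer of all probes were called as well, against CSE and against ESCs. Against ESCs, 9 of 10 were higher in otospheres (background 12.1%) and 0 lower (background 15.6%), and the unadjusted count of lower members was 0 as well. The count of 9 was 4 within slide 1 (Cldn3, Cldn8, Cldn9 and Cldn11). In the CSE, 5 of 10 were higher than in ESCs (background 13.2%) and 1 of 10 was lower (Cldn4, background 15.6%). By the F-test over the 3 groups, 9 of 10 differed, all except Cldn10, where 33.8% of all probes did. The 3 comparisons share samples, so their counts are not independent of each other.

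**Figure D1:**
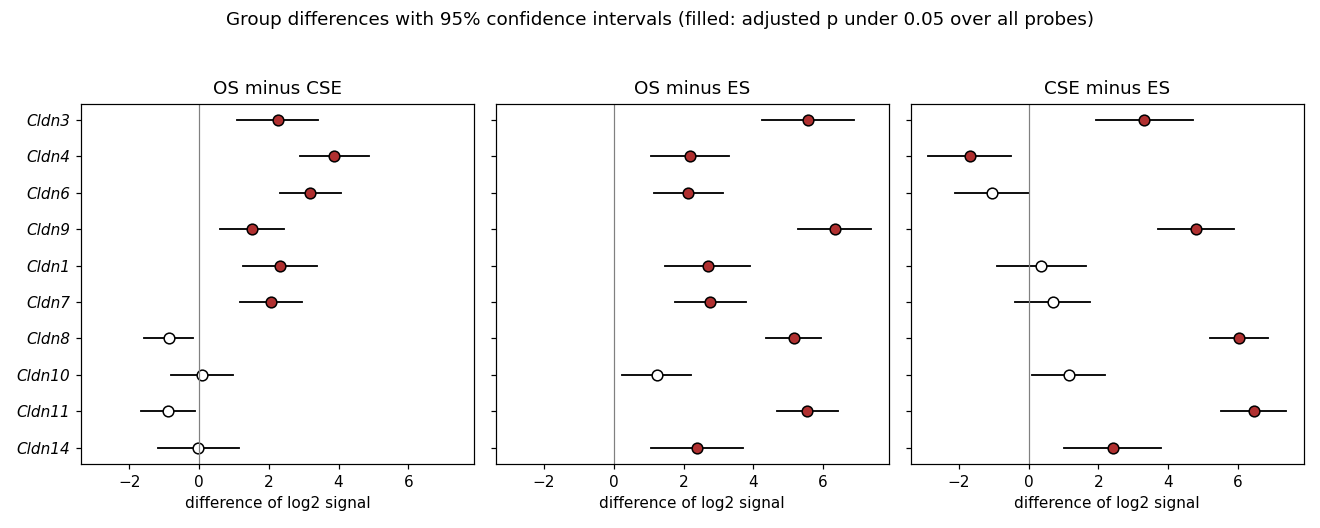
Differences of log2 signal between groups (x axis) for the 10 claudins, as OS minus CSE, OS minus ES and CSE minus ES, with 95% confidence intervals as bars and filled points for an adjusted p under 0.05. The 6 filled points of the left panel lie between 1.53 (Cldn9) and 3.87 (Cldn4), and Cldn4 is the filled point below 0 in the right panel, at -1.69.

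Promoters are shown for 4 of the 6 claudins that were higher in otospheres than in CSE. Each is given as the 250 bases before the outermost annotated start of the gene. These genes share that direction against CSE, and Cldn4 and Cldn3 are neighbours on chromosome 5. RefSeq windows of the build GRCm38.p6 were found for 8 of the 10 claudins, and Cldn8 and Cldn9 had none. Capitals mark the GC box, GGGCGG in one direction and on the opposite strand read as CCGCCC, which Sp1 family factors bind. They also mark the E-box, CAGGTG in one direction and on the opposite strand read as CACCTG, which Snail and Zeb repressors of epithelial genes bind. Both strands were searched, also for the TATA box TATAAA, and no match overlapped another.
Cldn4, chr5:134946935-134947184, minus strand: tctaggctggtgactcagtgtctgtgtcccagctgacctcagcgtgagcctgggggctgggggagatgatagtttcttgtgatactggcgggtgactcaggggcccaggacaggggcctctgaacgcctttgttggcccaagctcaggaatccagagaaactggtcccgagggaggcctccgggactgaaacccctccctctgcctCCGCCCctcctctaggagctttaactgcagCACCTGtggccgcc
Cldn3, chr5:134985964-134986213, plus strand: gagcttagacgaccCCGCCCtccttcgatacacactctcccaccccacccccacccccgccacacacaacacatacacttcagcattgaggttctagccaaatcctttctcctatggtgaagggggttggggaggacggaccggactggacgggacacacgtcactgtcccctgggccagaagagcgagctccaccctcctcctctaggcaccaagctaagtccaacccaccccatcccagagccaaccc
Cldn1, chr16:26371840-26372089, minus strand: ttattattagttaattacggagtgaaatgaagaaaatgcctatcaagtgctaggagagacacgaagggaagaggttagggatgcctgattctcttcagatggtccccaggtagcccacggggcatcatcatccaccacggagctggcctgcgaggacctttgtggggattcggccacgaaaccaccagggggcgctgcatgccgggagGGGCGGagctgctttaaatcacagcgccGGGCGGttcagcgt
Cldn7, chr11:69964529-69964778, plus strand: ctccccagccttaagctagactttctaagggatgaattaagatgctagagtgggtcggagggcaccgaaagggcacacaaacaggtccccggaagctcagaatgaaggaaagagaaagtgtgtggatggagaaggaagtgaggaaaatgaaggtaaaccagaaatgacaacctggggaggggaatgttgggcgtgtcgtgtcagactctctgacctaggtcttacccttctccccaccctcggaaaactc
The window of Cldn4 held 1 GC box and 1 E-box, that of Cldn3 held 1 GC box, that of Cldn1 held 2 GC boxes, and that of Cldn7 held none of the 3 motifs. A second window of Cldn7, before an inner start (chr11:69965171-69965420), held 1 GC box and 2 E-boxes. Cldn6 had a window before an inner start only (chr17:23679115-23679364), with 2 GC boxes and 1 E-box. No TATAAA was found in these 6 windows. Among all 32851 RefSeq windows of the same length, 32.7% held a GC box, 17.2% the E-box and 12.4% a TATAAA. The share of G and C was 62.0% for Cldn4, 60.8% for Cldn3, 55.6% for Cldn1 and 51.2% for Cldn7, against a median of 52.4% over all windows. These matches describe the letters and not binding.

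Cldn4 and Cldn3 are sealing claudins that also serve as the receptors of the Clostridium perfringens enterotoxin, and they are neighbours on chromosome 5 (Cldn4 at 134945123 to 134946934, Cldn3 at 134986214 to 134987476), 39279 bases apart. The log2 signal of Cldn4 was 13.17 in OS1-2, 11.83 in OS3, 12.86 in OS4-5 and 13.05 in OS6. It was 8.51, 8.49 and 9.56 in CSE1 to CSE3, and 11.17 and 9.92 in ES1 and ES2. The order was thus OS, ES, CSE, with no overlap between any pair of groups. Cldn4 was 14.6-fold higher in OS than in CSE (3.87 ± 0.44 SE on the log2 scale, adjusted p = 0.00087) and 4.54-fold higher than in ES (2.18, adjusted p = 0.01). It was lower in CSE than in ES (-1.69 ± 0.52 SE, adjusted p = 0.0390). The second probe of Cldn4 gave 3.52 for OS minus CSE (adjusted p = 0.00124), 1.75 for OS minus ES and -1.77 for CSE minus ES. The difference between OS and CSE held in each alternative tried, from 3.40 to 4.22. That between CSE and ES was not called once the slide was a block (-1.65, adjusted p = 0.0549), within slide 2 (-0.36), or without ES1 (-1.07, adjusted p = 0.257), OS4-5, CSE1 or CSE2. It was also lost with only the 2 groups compared and with the replicate number as a block. The difference between OS and ES was not called within slide 1 (1.33, adjusted p = 0.213), with the replicate number as a block (2.23, adjusted p = 0.0562) or without ES2 (1.56, adjusted p = 0.0943).

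The log2 signal of Cldn3 was 15.34 in OS1-2, 14.28 in OS3, 15.86 in OS4-5 and 16.08 in OS6. It was 12.90, 12.74 and 13.75 in CSE1 to CSE3, and 10.60 and 9.04 in ES1 and ES2. Here the order was OS, CSE, ES, and again no groups overlapped, so the 2 neighbouring genes shared their highest group but not their lowest. Cldn3 was 4.78-fold higher in OS than in CSE (2.26 ± 0.51 SE, adjusted p = 0.0239), 47.5-fold higher in OS than in ES (5.57, adjusted p = 0.000187) and 9.94-fold higher in CSE than in ES (3.31, adjusted p = 0.00363). The call between OS and CSE was lost, at differences of 2.03 to 2.28 and adjusted p-values of 0.0525 to 0.0973, when OS1-2, OS4-5, OS6, CSE1 or CSE2 was left out. It was also lost within slide 1 (1.99, adjusted p = 0.0741) and with the replicate block (1.85, adjusted p = 0.0878).

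Cldn6 and Cldn9 form the second pair of neighbours, on chromosome 17 (Cldn6 at 23679348 to 23682446, Cldn9 at 23682584 to 23684026), with 137 bases between them. Cldn6 is best known from embryonic epithelia and Cldn9 from the inner ear, where mice with a mutated Cldn9 are deaf. The log2 signal of Cldn6 was 12.25 in OS1-2, 11.63 in OS3, 13.03 in OS4-5 and 12.46 in OS6, 9.34, 8.38 and 9.75 in CSE1 to CSE3, and 10.29 and 10.11 in ES1 and ES2. All OS samples lay above all others, and the 3 CSE samples lay below both ES samples. Cldn6 was 9.10-fold higher in OS than in CSE (3.19 ± 0.39 SE, adjusted p = 0.00124) and 4.40-fold higher than in ES (2.14, adjusted p = 0.00615), while CSE minus ES was -1.05 (adjusted p = 0.130). The difference between OS and CSE held in each alternative tried, from 2.80 to 3.48, while that between OS and ES was not called within slide 1 (1.64, adjusted p = 0.103).

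The log2 signal of Cldn9 was 14.04 in OS1-2, 13.92 in OS3, 15.32 in OS4-5 and 15.29 in OS6. It was 12.68, 13.12 and 13.55 in CSE1 to CSE3, and 8.53 and 8.10 in ES1 and ES2. The groups did not overlap, but the gap between the lowest OS and the highest CSE sample was only 0.37. Cldn9 was 80.3-fold higher in OS than in ES (6.33 ± 0.46 SE, adjusted p = 2.74e-05) and 27.9-fold higher in CSE than in ES (4.8, adjusted p = 0.000149). Its 2.88-fold higher signal in OS than in CSE (1.53 ± 0.40 SE) was near the threshold (adjusted p = 0.0439). It passed in 11 of 22 alternatives and failed, with differences of 1.30 to 1.74 and adjusted p-values of 0.0544 to 0.172, when ES1, ES2, OS4-5, OS6, CSE1, CSE2 or CSE3 was left out. It also failed within slide 1 (1.08, adjusted p = 0.0995), with the replicate block (0.88, adjusted p = 0.122), with only the 2 groups compared (adjusted p = 0.0544) and with no filter on dim probes (adjusted p = 0.0507).

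Cldn1 and Cldn7 are widespread claudins of lining epithelia. Cldn1 seals the epidermis against loss of water, and Cldn7 lies along the lateral membrane, where it binds EpCAM. The log2 signal of Cldn1 was 7.88 in OS1-2, 6.0 in OS3, 8.12 in OS4-5 and 8.05 in OS6. It was 5.18, 5.17 and 5.24 in CSE1 to CSE3, and 4.78 and 4.87 in ES1 and ES2. Cldn1 was well above background on all 6 OS arrays and on no CSE or ES array, so its folds are lower bounds, taken on each of those arrays against the dimmest signal called well above background or the signal of Cldn1 itself, whichever was higher. It was at least 4.93-fold higher in OS than in CSE (measured difference 2.32 ± 0.47 SE, adjusted p = 0.0142) and at least 4.38-fold higher than in ES (2.69, adjusted p = 0.0051). OS3 was the lowest of the OS samples. Cldn1 may have passed the brightness filter through the OS arrays alone. With no filter on dim probes it was still called against CSE (adjusted p = 0.0171) and against ES (adjusted p = 0.00624). The call against CSE was lost within slide 1 (1.77, adjusted p = 0.266) and without CSE1 (2.31, adjusted p = 0.0590) or CSE3 (2.34, adjusted p = 0.0545), and that against ES was lost within slide 1 (2.16, adjusted p = 0.145).

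The log2 signal of Cldn7 was 15.42 in OS1-2, 14.05 in OS3, 15.64 in OS4-5 and 15.69 in OS6, 13.05, 12.80 and 13.55 in CSE1 to CSE3, and 12.53 and 12.34 in ES1 and ES2. OS3 was again the lowest OS sample, and the groups did not overlap. Cldn7 was 4.19-fold higher in OS than in CSE (2.07 ± 0.40 SE, adjusted p = 0.0108) and 6.78-fold higher than in ES (2.76, adjusted p = 0.00183). Its CSE minus ES difference was 0.70, with a 95% interval of -0.38 to 1.77 (adjusted p = 0.328). The call against CSE was lost without CSE1 (2.03, adjusted p = 0.0507), within slide 1 (1.81, adjusted p = 0.150) and with the replicate block (1.83, adjusted p = 0.0548), and that against ES was lost within slide 1 (2.20, adjusted p = 0.0759). Epcam itself, the first gene of the epithelial list, was 0.89 higher in OS than in CSE (adjusted p = 0.0447) and 1.22 higher than in ES (adjusted p = 0.00849).

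**Figure D2:**
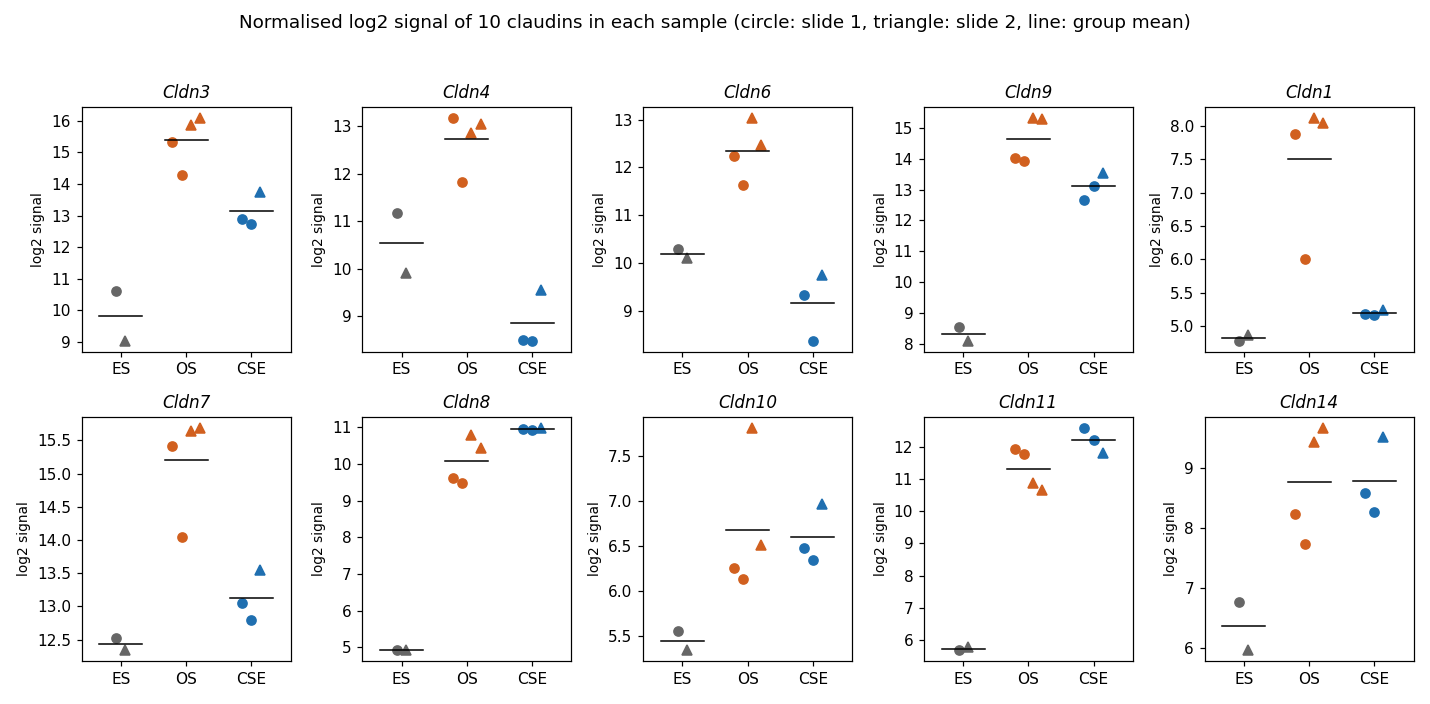
Normalised log2 signal (y axis, a separate scale in each panel) of the 10 claudins in the 2 ES, 4 OS and 3 CSE samples, with circles for slide 1, triangles for slide 2 and a line at the group mean. In the panels of Cldn3, Cldn4, Cldn6, Cldn9, Cldn1 and Cldn7 every OS point lies above every CSE point, while the CSE points lie above the OS points for Cldn8 and the groups overlap for Cldn10, Cldn11 and Cldn14.

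The other 4 claudins did not pass the test between otospheres and CSE. Cldn8 is a sealing claudin of the kidney collecting duct that pairs with Cldn4. Its log2 signal was 9.62 in OS1-2, 9.49 in OS3, 10.79 in OS4-5 and 10.43 in OS6, 10.95, 10.92 and 10.99 in CSE1 to CSE3, and 4.93 and 4.92 in ES1 and ES2. The CSE samples lay within 0.07 of each other and above all OS samples. The OS minus CSE difference was -0.87, with a 95% interval of -1.57 to -0.17 (adjusted p = 0.123). It passed within slide 1 (-1.38, adjusted p = 0.0342) and without OS4-5 (-1.11, adjusted p = 0.0435). No ES array held Cldn8 well above background, and it was at least 26.0-fold higher in OS than in ES (5.16 ± 0.35 SE, adjusted p = 2.02e-05) and at least 47.6-fold higher in CSE than in ES (6.03 ± 0.37 SE, adjusted p = 1.17e-05).

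Cldn11 forms the tight junctions of the basal cells of the stria vascularis, of myelin and of Sertoli cells. Its log2 signal was 11.91 in OS1-2, 11.76 in OS3, 10.88 in OS4-5 and 10.64 in OS6. It was 12.58, 12.20 and 11.81 in CSE1 to CSE3, and 5.69 and 5.80 in ES1 and ES2. The lowest CSE sample lay within the range of the OS samples, and the OS minus CSE difference was -0.90, with a 95% interval of -1.67 to -0.13 (adjusted p = 0.147). Cldn11 was 46.9-fold higher in OS than in ES (5.55, adjusted p = 2.22e-05) and 87.4-fold higher in CSE than in ES (6.45, adjusted p = 1.31e-05), and 1 of 2 ES arrays held it well above background.

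Cldn14 is made by hair cells and supporting cells, and mutations of the human gene cause deafness. Its log2 signal was 8.24 in OS1-2, 7.74 in OS3, 9.43 in OS4-5 and 9.67 in OS6, 8.58, 8.27 and 9.51 in CSE1 to CSE3, and 6.78 and 5.97 in ES1 and ES2. The OS and CSE samples overlapped across nearly the whole range, and both groups lay above both ES samples. The OS minus CSE difference was -0.02, with a 95% interval of -1.18 to 1.14 (adjusted p = 0.994). Cldn14 was 5.25-fold higher in OS than in ES (2.39, adjusted p = 0.0139) and 5.32-fold higher in CSE than in ES (2.41, adjusted p = 0.0168). Without ES2 these calls were lost (1.99, adjusted p = 0.105, and 2.01, adjusted p = 0.108), and without CSE3 the second was lost (2.05, adjusted p = 0.0541). The call against ES in OS was also lost within slide 1 (1.21, adjusted p = 0.0764) and with the replicate block (1.60, adjusted p = 0.0579).

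Cldn10 forms paracellular pores, and its isoforms with different first exons pass cations or anions. Which isoform the probe reads is not given in the sources used here. Its log2 signal was 6.25 in OS1-2, 6.13 in OS3, 7.81 in OS4-5 and 6.51 in OS6, 6.48, 6.34 and 6.96 in CSE1 to CSE3, and 5.55 and 5.34 in ES1 and ES2. The OS and CSE samples overlapped, with OS4-5 the highest, and no ES array held it well above background. The OS minus CSE difference was 0.08, with a 95% interval of -0.80 to 0.96 (adjusted p = 0.958). OS minus ES was 1.23, with a 95% interval of 0.23 to 2.22 (adjusted p = 0.0693). CSE minus ES was 1.15, with a 95% interval of 0.10 to 2.19 (adjusted p = 0.100). Without OS4-5 both of these passed (0.85, adjusted p = 0.0424, and 1.15, adjusted p = 0.0114), as did OS minus ES once the slide was a block (adjusted p = 0.0460). OS minus ES also passed with an offset of 0 (adjusted p = 0.0417), the authors' log2 values (0.0432), processed signals scaled to the 75th percentile (0.0115) and every array separate (0.0489). CSE minus ES also passed with that scaling (0.0103), the replicate block (0.0339) and only the 2 groups compared (0.0255). In 16 and 18 of 22 alternatives they stayed uncalled.

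The 4 OS samples differed among themselves in step with the slide. For 9 of the 10 claudins the mean of OS4-5 and OS6 on slide 2 was above that of OS1-2 and OS3 on slide 1, by 0.46 (Cldn4) to 1.56 (Cldn14), and for Cldn11 it was lower (-1.07). The OS samples of the slides did not overlap for any member except Cldn4. The share of all probes with such a shift or without overlap was not computed. Neither count is thus shown to be particular to the claudins. CSE3, the CSE sample on slide 2, also lay above the mean of CSE1 and CSE2 for the same 9, by 0.06 (Cldn1 and Cldn8) to 1.08 (Cldn14), and below it for Cldn11 (-0.58). In ES the slide also separates the G4-2 and D3 lines, and slide and line cannot be told apart there. In OS and CSE the slides held different samples, so a shift of the slide and one of the preparations cannot be told apart. With the slide as a block, the OS minus CSE differences of the 6 called members were 3.83 for Cldn4, 3.08 for Cldn6, 2.22 for Cldn1, 2.18 for Cldn3, 1.97 for Cldn7 and 1.41 for Cldn9, and all 6 passed. Within slide 1 they were 4.0, 3.08, 1.77, 1.99, 1.81 and 1.08 in the same order, and within slide 2 they were 3.40, 2.99, 2.85, 2.22, 2.12 and 1.75. The fit within slide 1 had 2 residual degrees of freedom and that within slide 2 had 1.

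Tight junctions also need occludin and its relatives, adhesion molecules, scaffold proteins that tie the strands to actin, and polarity complexes. Of 29 such partner genes tested, 11 were higher in OS than in CSE and 2 lower, with a median difference of 0.91, against 4.84% and 6.19% of all probes and a median of 0.02. The 4 largest rises were of Crb3, the apical polarity protein (2.26, adjusted p = 0.0146), Ocln, which encodes occludin (1.97, adjusted p = 0.00541), Amotl1, an angiomotin that binds polarity scaffolds (1.75, adjusted p = 0.0124) and Marveld3, a relative of occludin (1.73, adjusted p = 0.0104). The falls were of Esam, an adhesion molecule of endothelial cells that no OS array held well above background (at least 12.9-fold lower, measured difference -3.85, adjusted p = 0.00214), and Pard3, a polarity scaffold (-0.65, adjusted p = 0.0329). Tjp1, which encodes the scaffold ZO-1, differed by -0.38 (adjusted p = 0.324), a gene named after its value was seen. With the slide as a block 11 were higher and 2 lower, within slide 1 there were 3 and 1, and within slide 2 there were 14 and 1. The count of 11 was 7 without OS1-2, OS4-5 or CSE2, and 6 without CSE1 or CSE3, and the count of 2 was 1 without any single OS or CSE sample.

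Among the 18 other claudins tested, 2 were higher in OS than in CSE and 4 were lower, with a median difference of 0.08. Of all probes, 4.84% were higher and 6.19% lower. Cldn23 (2.10, adjusted p = 0.0427) and Cldn13 (1.72, adjusted p = 0.0112) were higher. Cldn5, the claudin of endothelial cells, had the largest fall (-6.23 ± 0.35 SE, adjusted p = 3.8e-05), from a mean log2 signal of 11.69 in CSE to 5.45 in OS. Cldn22 (-1.70, adjusted p = 0.00416), Cldn19, a claudin of kidney and of myelinating Schwann cells (-1.38, adjusted p = 0.00195), and Cldn24 (-1.13, adjusted p = 0.00345) were also lower. The count of 2 became 1 when any sample other than OS3 was left out, and the count of 4 was 4 each time. With the slide as a block the counts were 2 and 4, within slide 1 they were 0 and 2, and within slide 2 they were 3 and 3.

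**Figure D3:**
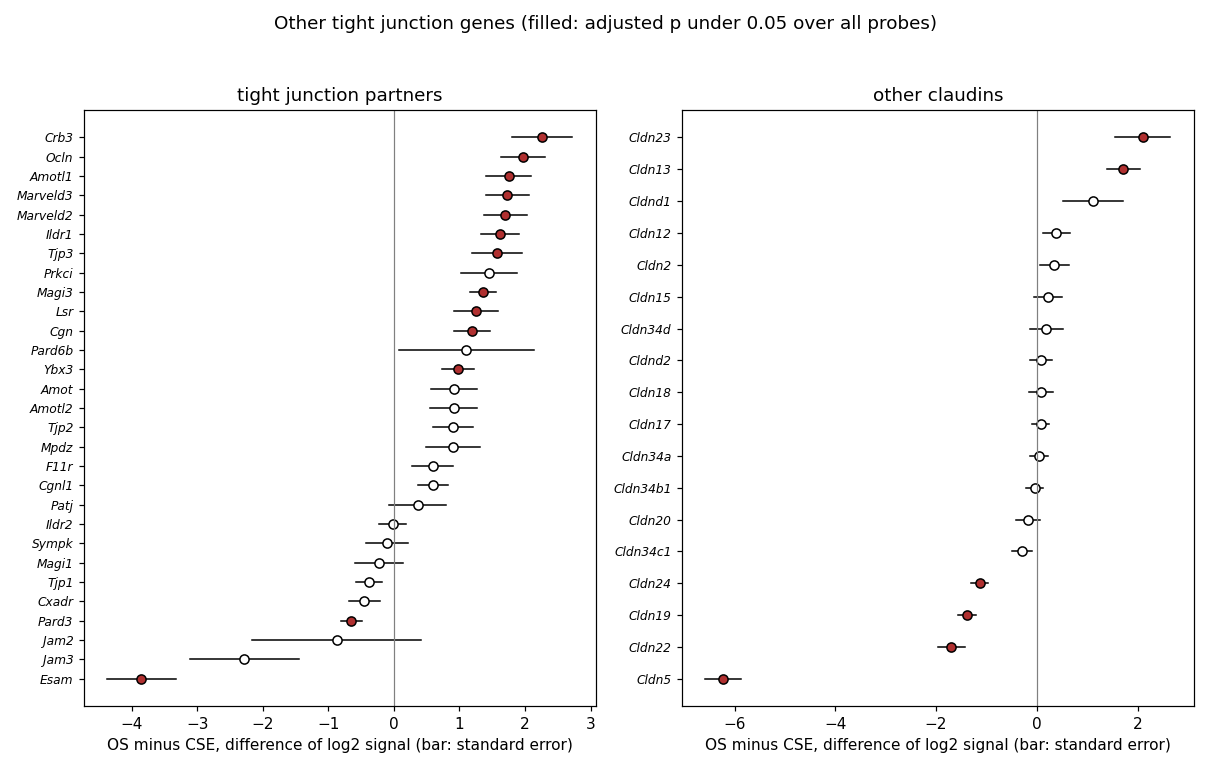
OS minus CSE difference of log2 signal (x axis, with the standard error as a bar) for 29 tight junction partner genes and 18 other claudins, with filled points for an adjusted p under 0.05. Filled points lie mostly to the right among the partners (11 higher, 2 lower), while 4 of the 6 filled points among the other claudins lie to the left, with Cldn5 farthest at -6.23.

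Marker genes of several cell types moved with the same groups. Of 22 epithelial identity genes, 13 were higher in OS than in CSE and 0 lower (0 at an unadjusted p under 0.05 as well), with a median of 1.32. Over all probes 4.84% were higher and 6.19% lower, with a median of 0.02. The mean level of the list, with each gene centred on its mean over the 9 samples, was 0.19 to 1.28 in OS, -0.98 to -0.66 in CSE and -0.58 to -0.33 in ES. The 4 OS samples had the same order in this list (OS3 0.19, OS1-2 0.83, OS6 1.24, OS4-5 1.28) as in the mean of the 10 claudins (OS3 0.47, OS1-2 1.2, OS6 1.58, OS4-5 1.76). That order was not particular to these lists. It was the same in the tight junction partners (0.14 in OS3 to 0.65 in OS4-5) and in the other claudins (-0.11 to 0.19). Of 19 mesenchymal genes, 3 were higher and 3 lower, with a median of -1.64 and a list level of -2.11 (OS6) to 1.14 (OS3) in OS, 0.86 to 1.38 in CSE and -1.61 to -1.50 in ES, and Vim differed by -0.29 (adjusted p = 0.702). OS3, the OS sample with the lowest claudin level, thus had the highest mesenchymal level of the 4. The mesenchymal median was -1.42 with the slide as a block, -0.12 within slide 1 and -3.07 within slide 2, where OS6 lies, and -0.64 without OS6, while the epithelial median was 1.21, 1.11 and 1.48, with 13, 7 and 11 genes higher. Without CSE1 the mesenchymal counts were 1 higher and 1 lower, and without CSE3 they were 1 higher and 2 lower. The part of these genes in the claudin differences was not tested.

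**Figure D4:**
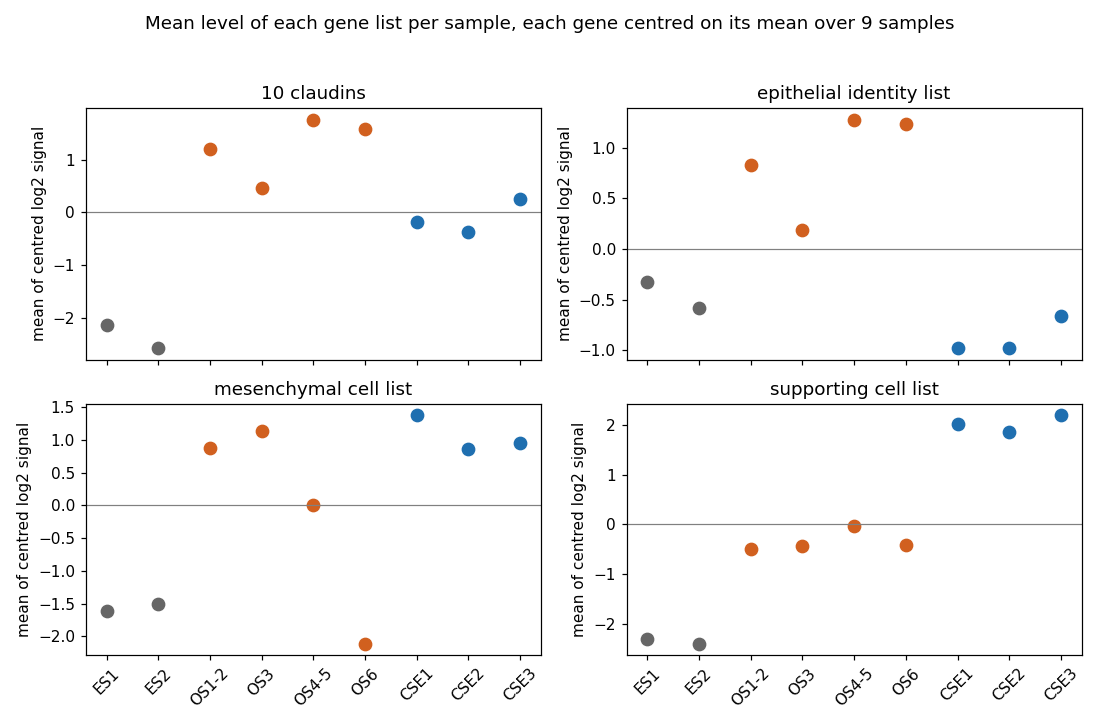
Mean of the centred log2 signals (y axis) of the 10 claudins and of the epithelial identity, mesenchymal cell and supporting cell lists in each of the 9 samples (x axis), coloured by group. OS3 is the lowest OS sample for the claudins (0.47) and the epithelial list (0.19) and the highest for the mesenchymal list (1.14), and the supporting cell list is at 1.86 to 2.19 in CSE and at -0.50 to -0.03 in OS.

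Several other marker lists held more genes that were lower than higher in otospheres against CSE. The shares over all probes were 6.19% lower and 4.84% higher. Of 18 supporting cell genes, 14 were lower in OS than in CSE and 0 higher (1 at an unadjusted p under 0.05), and of 18 hair cell genes, 6 were lower and 1 higher. The hair cell list was at -0.88 to 0.83 in OS and at 0.95 to 1.34 in CSE, and Myo7a differed by -2.47 (adjusted p = 0.00586). Of 14 endothelial genes, 8 were lower and 0 higher (0 at an unadjusted p under 0.05 as well), with list levels of -1.74 to -0.62 in OS, 0.90 to 1.67 in CSE and 0.00 to 0.17 in ES. Cldn5 and Esam, both named above as falls, belong to this list. Of 14 Schwann cell and oligodendrocyte genes, 5 were lower and 1 higher (-0.42 to 0.05 in OS, 0.71 to 1.16 in CSE), and of 15 stria vascularis and melanocyte genes, 5 were lower and 2 higher (-0.53 to -0.25 in OS, 0.30 to 1.11 in CSE), with a median difference of -0.73. Kcnq1, the first gene of the stria list, was one of those higher (1.13, adjusted p = 0.0217). The 2 higher stria genes were 0 within slide 1 and 1 with the replicate block or without any single OS or CSE sample other than OS3, and the stria median was -0.04 within slide 2. The 6 lower hair cell genes were 3 within slide 2, and the 1 higher was 0 within slide 1. Lower hair cell genes numbered 9 with the slide as a block, with the replicate block or without OS6. The 1 higher Schwann cell and oligodendrocyte gene was 0 with the replicate block and without CSE1 or CSE3. The lower counts were 12 to 15 for supporting cell genes and 6 to 8 for endothelial genes over the slide, block and left-out-sample settings. Of 12 ESC genes, 11 were lower in OS than in ES, against 15.6% of all probes. The list was at 4.56 to 4.71 in ES, at -1.48 to -1.16 in OS and at -1.32 to -1.18 in CSE. The exception was Nanog, a gene named after its value was seen. Its brightest probe had a mean log2 signal of 8.38 in ES, 9.82 in OS and 10.03 in CSE. The OS minus ES difference was not called (1.44, adjusted p = 0.105). Only this probe was read for Nanog, so the values may not hold for other probes of the gene. The paper instead lists Nanog among the genes upregulated only in ESCs. By immunostaining it found no NANOG protein in otospheres. The cause of this difference was not tested.

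The genes whose pattern over the 9 samples was most like that of a claudin are given as a description, since the points share arrays, slides and 3 group means. Among 18546 other genes, Cldn1 was most like Sdr16c5 (Pearson r = 0.996), Aldh1l2 (0.983) and Cldn7 (0.982), and Cldn7 was most like Sdr16c5 (0.986), Tnfaip1 (0.983) and Cldn1 (0.982). Cldn1 and Cldn7 thus named each other and the same retinol dehydrogenase relative. Cldn3 was most like Tax1bp3, Fut2 and Sun2 (each 0.992), and its neighbour Cldn4 was most like Htatip2 (0.984), Blnk (0.983) and Bcar1 (0.982). Cldn6 was most like Pdlim7 (0.987), Mab21l4 (0.986) and Olfr622 (0.985), and Cldn9 was most like Plekhb1 (0.999), Sema3f (0.996) and Arhgef10l (0.995). Neither pair of neighbours appeared in each other's 3 genes. Among the claudins that were low in ES and present in both other groups, Cldn8 was most like Pogk and Slc24a3 (each 0.997), Cldn11 like Alcam (0.996), Ghr (0.993) and Hp1bp3 (0.993), and Cldn14 like Tmub1 (0.990), C2cd2l (0.986) and Npr2 (0.982).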

How the data were processed

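The scanner files deposited for each array give, per spot, a median signal intensity and the median intensity of the surrounding background, read with Feature Extraction 10.7.3.1 and not normalised between arrays. A processed intensity per spot was deposited as well. The authors also deposited log2 values that had been background-corrected, quantile-normalised and filtered with limma. Both served as alternatives. The local background was corrected by limma 3.58.1 (R 4.3.3) with normexp and an offset of 16, since the sources used here name neither method nor offset. Values were then converted to log2 and quantile-normalised over the 11 arrays. Outlier-flagged spots were left out, and spots of a probe were averaged. Probes had to exceed the 95th percentile of the 308 negative control spots by 10% or more on 2 or more arrays, because ES has 2. Of 55681 probes, 26762 were named through RefSeq accessions. Cldn4 has 2 probes, and the brightest is its main probe.

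A limma model of the 3 groups was fitted to 9 samples after averaging OS1 with OS2 and OS4 with OS5. Their differences over 17210 bright probes were 0.89 and 0.397 times the noise between spots, against at least 1.67 times for the other pairs within groups. The difference was a median-based spread over single-spot probes, and the noise came from mean variances over probes with repeated spots. These are unlike measures, so a ratio as near the limit as that of OS1 and OS2 is rough. The labels do not say which arrays are technical repeats or got 50 or 100 ng of RNA. Adjusted p-values under 0.05 were called. A group with no array well above background gives a lower bound on the estimated fold, which leaves out the spread between samples. The members and gene lists were chosen with earlier results of these data known. All 10 members are described. Of the partner genes and other claudins, at most the 4 largest called changes in each direction are named, of each marker list the first gene, and for each member past the F-test the 3 most correlated genes, except for items that are not reported here. Alternatives were the offset, scaling, filter, probe choice, slide, replicate number and leaving out each sample. The number of arrays limits the precision.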

Additional observations from a re-analysis of the deposited data

Results flagged for a closer look

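Cldn1 and Cldn7 were marked for the sample OS3, which lay far under the other otosphere samples. The gap between OS3 and the next lowest OS sample was 0.89 of the whole OS range for Cldn1 and 0.834 for Cldn7, above the critical value of Dixon's test for 4 samples. The 10 claudins were each tested in this way, and chance marks about 1 in 20 groups. For Cldn4 the same share was 0.77, and OS3 was the lowest OS sample for Cldn3, Cldn6, Cldn8, Cldn9, Cldn10 and Cldn14 as well. OS3 also had the highest mesenchymal list level of the OS samples (1.14) and the lowest epithelial list level (0.19). These lists were not the only ones. OS3 was lowest for the hair cell (-0.88), Schwann cell and oligodendrocyte (-0.42), tight junction partner (0.14) and other claudin (-0.11) lists, and highest for the endothelial list (-0.62). It was at neither end for the supporting cell and ESC lists. How often OS3 was the lowest over all probes was not computed. Its array was the dimmest of the OS arrays before normalisation, with a median signal of 68 against 76.5 (OS6) to 116 (OS4). It also had the lowest share of spots well above background among the OS arrays, 58.5%. The part of these list levels and of array brightness was not tested. Without OS3, 6 of 10 claudins were higher in OS than in CSE, as with it, and the median difference was 2.11 in place of 1.80.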

How the results depend on the processing

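Of the values that the member differences took over 22 alternatives (23 for Cldn4), 594 kept direction and side of the threshold, 43 lost a call, 14 gained one and 12 changed sign. The OS minus CSE calls of Cldn4 and Cldn6 and the OS minus ES calls of Cldn3, Cldn8, Cldn9 and Cldn11 held in all. The 6 claudins higher in OS than CSE became 2 within slide 1 and 3 with the replicate block, and 2 (without CSE1) to 6 when 1 sample was left out. The 9 higher in OS than ES became 4 within slide 1. The 1 lower in CSE than ES became 0 with the slide as a block, within slide 2, with the replicate block and with only the 2 groups compared, and 0 to 1 with 1 sample left out (0 without ES1, OS4-5, CSE1 or CSE2). The 0 lower in OS than CSE became 1 (Cldn8) within slide 1 and with the replicate block, and 0 to 1 with 1 sample left out (1 without OS4-5). Signs changed only for differences that were not called. Cldn10, OS minus CSE, was -0.21 with processed signals scaled to the 75th percentile, -0.01 with the slide as a block, -0.22 within slide 1, -0.38 with the replicate block and -0.30 to 0.26 with 1 sample left out. Cldn14, OS minus CSE, was 0.00 with every array separate, 0.04 within slide 2 and -0.32 to 0.34 with 1 sample left out. Cldn7, CSE minus ES, was -0.10 with the 75th percentile scaling, which moved the median of all probes to -0.31 for OS minus ES and -0.28 for CSE minus ES. Within slide 1 fewer of all probes were called in each comparison as well. The causes were not tested.

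The replicate block used numbers that do not pair the samples. Deviations of same-numbered arrays from their group means correlated at 0.356 (OS1, CSE1), -0.34 (OS2, CSE2) and -0.392 (OS3, CSE3), and at -0.0724 to 0.053 with ES, so the block says little. Where a lone sample remained in a group, it was assumed to vary like the others.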
